A study of Caenorhabditis elegans with 8 samples.

Results

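The Mutator complex is the protein assembly that amplifies small interfering RNAs in *C. elegans*, and 7 of its genes were followed here at the mRNA level. They were chosen by the sequence names of the rows in the count tables. No measured value was used in the rule, though earlier results of these data were known. The genes were *mut-16* (B0379.3), *rde-3* (K04F10.6, also called *mut-2*), *mut-7* (ZK1098.8), *mut-8* (F21C3.4, also called *rde-2*), *mut-14* (C14C11.6), *mut-15* (T01C3.8) and *rde-8* (ZC477.5). These 7 genes stood among 46449 genes with distinct names in the tables. The libraries were mRNA-seq of whole L4 larvae, the last larval stage, grown from synchronized first-stage larvae at 20ºC or 25ºC. There were 2 replicates of each of 4 groups, which were the wild-type strain N2 and the strain NL1810, carrying the single allele *mut-16(pk710)*, at either temperature. Animals were harvested at about 56 h at 20ºC and about 39 h at 25ºC, so temperature and culture time changed together and cannot be told apart. The comparison asked whether loss of *mut-16* changed the mRNA of its partners.

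Small RNA silencing in *C. elegans* begins with primary small RNAs that mark a target transcript. At Mutator foci, which sit beside germ granules at the outer face of germ cell nuclei, RNA-dependent RNA polymerases then copy the target into abundant secondary small interfering RNAs. MUT-16 is the scaffold on which the other proteins gather, and the same proteins also act in RNA interference in the soma. RDE-3 is a nucleotidyltransferase that adds tails of alternating U and G to cleaved target RNAs, and RDE-8 is an endoribonuclease that cuts targets. MUT-7 is related to 3′-to-5′ exonucleases and works with MUT-8. MUT-14 is a DEAD-box RNA helicase, and MUT-15 is a further component that is needed for the complex to act.

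The genes lay on 4 chromosomes (coordinates of WBcel235, Ensembl release 115, all protein-coding). *mut-16* occupied I:10080159-10085765 on the plus strand with 14 exons. *rde-3* lay at I:6356614-6358411 and *mut-8* at I:7280466-7282924, both on the minus strand. The remaining genes were *mut-7* at III:9539031-9542380, *rde-8* at IV:7101379-7103261, *mut-14* at V:5658713-5660704, all minus, and *mut-15* at V:15002543-15005067, plus. *rde-3* and *mut-8* share chromosome I with the mutated locus, and the mutants were of a single strain and allele.

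Total counts were 9914054 to 13227929 per library. The 7 genes took between 55 and 407 counts each in a library, and together 0.00882% to 0.0135% of a library. These low counts limit the precision of every value below, as does the spread between replicates. All 7 passed the filter on low counts, as did 13972 genes in all. Marker lists of germ cells (12 genes), meiotic prophase, oocytes, muscle, neurons, intestine and hypodermis were tested in full, and 9 of 10 sperm genes were. Several lists moved between the groups, as called by edgeR. In mutants compared to wild-type, oocyte markers were called lower at 20ºC for 6 of 10 genes, where 8.43% of all genes tested were called in either direction. Sperm markers were called lower in mutants at 25ºC for 6 of 9, where 20.2% of all genes were called. Upon growth at 25ºC, oocyte markers were called higher in mutants for 9 of 10 (median log2(fold change) 1.09), where 12.2% of all genes were called. In wild-type they were called higher for 1 of 10, where 20.8% of all genes were called. Beside these shares, hypodermis markers were called higher for 4 of 8 and lower for 3 of 8 in wild-type at 25ºC. In mutants they were called higher for 5 of 8. The 12 germ cell markers, such as *pgl-1* and *glh-1*, summed to 904 and 703 CPM in wild-type at 20ºC, 634 and 703 at 25ºC, 677 and 768 in mutants at 20ºC, and 680 and 728 at 25ºC. These sums overlapped between genotypes at both temperatures. In mutants at 20ºC 8 of the 12 were lower, with a median log2(fold change) of −0.28, beside a median of −0.20 for the 6 partners of *mut-16*. None of the 12 passed edgeR's test there (2 at an unadjusted p under 0.05, 0 by DESeq2), and *pgl-1* had −0.47. At 25ºC *glp-1* was called higher in mutants, at 0.71 (edgeR adjusted p = 0.0281), and the call was lost without the first wild-type library at 25ºC (0.53, adjusted p = 0.232) and without either mutant library at 25ºC. The part of these lists in the values below was not tested. In such bulk samples, fewer cells that express a gene cannot be told apart from less of its mRNA per cell.

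*mut-16* mRNA was lower in every mutant library than in any wild-type library. In CPM, read counts scaled to 1 common library size, it was at 26.0 and 26.2 in wild-type at 20ºC and 24.3 and 22.6 in wild-type at 25ºC. The mutants held 5.47 and 7.42 CPM at 20ºC and 7.20 and 7.82 CPM at 25ºC. The mutant transcript was thus reduced but present, with 55 to 105 counts per mutant library. The log2(fold change) of mutant over wild-type was −2.001 ± 0.18 (SE, n = 2 per group) at 20ºC and −1.64 ± 0.18 at 25ºC. The adjusted p-values were 1.6e-05 and 3.41e-05 (edgeR's quasi-likelihood test, Benjamini-Hochberg adjustment over all genes tested). These are 0.250 and 0.321 of the wild-type level. The difference between the temperatures, 0.36 on the log2 scale, had a 95% interval of −0.18 to 0.90 and did not pass the test. *mut-16* was the only member past the study's cutoff, which asks for an adjusted p up to 0.05 and a log2(fold change) beyond 1 either way, at either temperature. Among all genes tested 4.57% passed that cutoff at 20ºC and 11.8% at 25ºC.

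**Figure D1:**
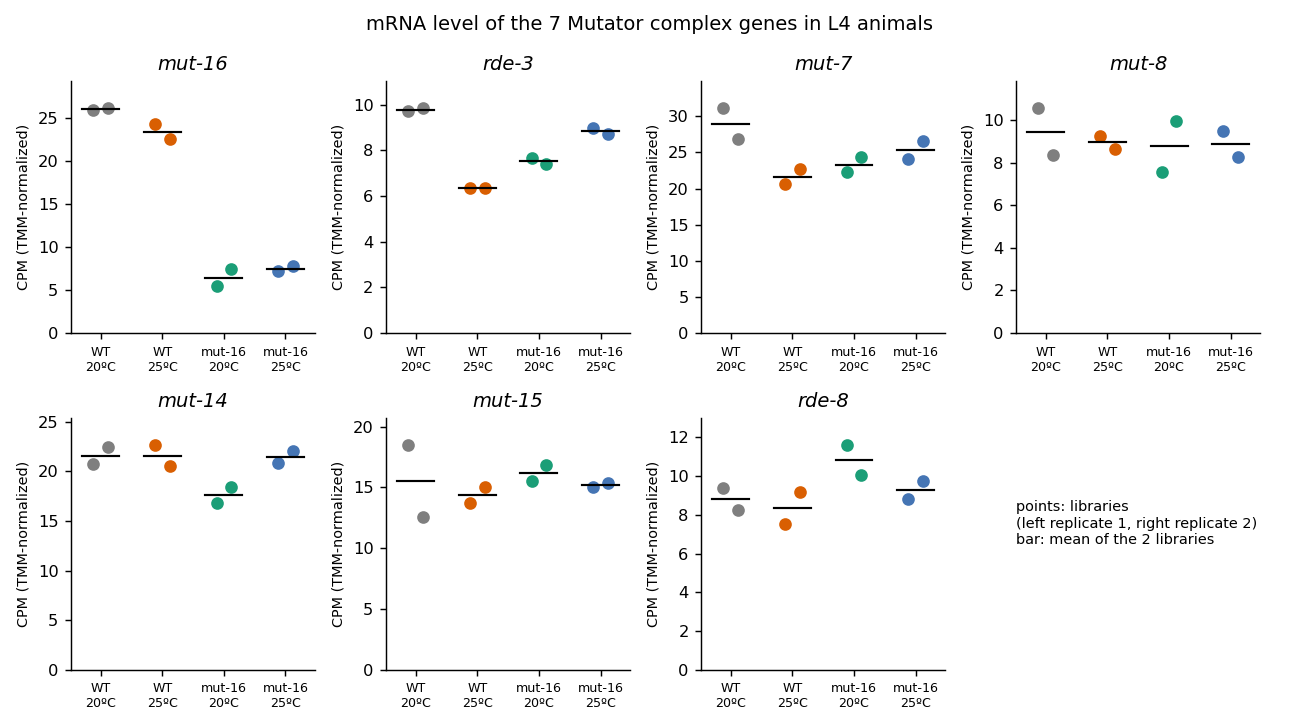
Each panel plots the CPM of 1 gene (vertical axis, from 0) in the 8 libraries, with points for libraries and a bar for the mean of the 2 libraries of a group. *mut-16* lies at 22.6 CPM or above in the 4 wild-type libraries and at 7.82 CPM or below in the 4 mutant libraries. For the other 6 genes the points of mutants and wild-type lie closer together. The mutant libraries at 20ºC lie below all wild-type libraries for *mut-14* (16.9 and 18.4 CPM) and above them for *rde-8* (11.62 and 10.04 CPM).

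A comparison inside each library, which needs no scaling between libraries, showed the same drop. *mut-16* counts amounted to 26.0% and 29.7% of the summed counts of the 6 partners in wild-type at 20ºC, and to 30.3% and 27.4% at 25ºC. In mutants the share was 6.71% and 8.52% at 20ºC, and 8.24% and 8.62% at 25ºC.

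None of the 6 partners passed the test with the mutation at either temperature. At 20ºC 0 of 6 passed the test, beside 8.43% of all genes tested, and at 25ºC 0 of 6 passed, beside 20.2%. With both temperatures averaged 0 of 6 passed, beside 22.2%. At an unadjusted p under 0.05 there were 0 partners at 20ºC, 1 at 25ºC (*rde-3*) and 0 averaged, and DESeq2 likewise called *mut-16* alone in each of the 3 comparisons. With so few genes, a count of 0 is not a result about the partners, and the intervals say more. The per-gene 95% intervals of the partners' log2(fold change) spanned −0.77 to 0.70 at 20ºC and −0.46 to 0.88 at 25ºC. None reached the cutoff of 1 in either direction. Averaged over temperatures, every interval lay between 0.771-fold and 1.43-fold. That average joins estimates of opposite sign for *rde-3* (−0.38 at 20ºC and 0.48 at 25ºC) and *mut-7* (−0.31 and 0.23). For the other partners the signs were the same at both temperatures.

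**Figure D2:**
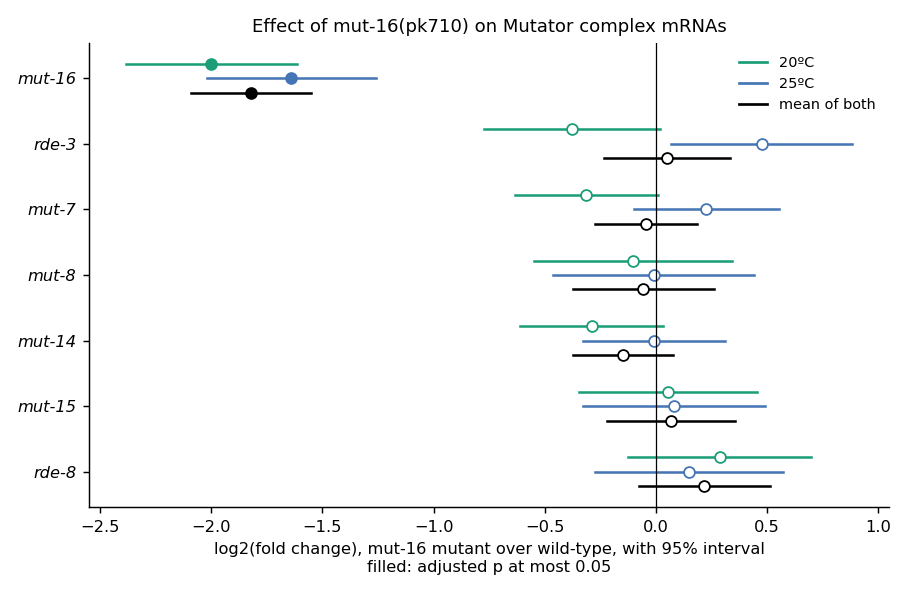
The horizontal axis gives log2(fold change) of *mut-16* mutant over wild-type, with points for estimates and lines for per-gene 95% intervals, at 20ºC (green), at 25ºC (blue) and averaged (black). Filled points passed the test. *mut-16* alone is filled, at −2.001, −1.64 and −1.82, and the partners' averaged estimates lie between −0.15 and 0.22.

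*rde-3*, the poly(UG) polymerase gene, was the partner whose group means spread the most. It was at 9.72 and 9.86 CPM in wild-type at 20ºC and at 6.365 and 6.362 CPM at 25ºC. Mutants had 7.65 and 7.42 CPM at 20ºC and 8.999 and 8.714 CPM at 25ºC. The 4 groups did not overlap: wild-type was highest at 20ºC and lowest at 25ºC, with both mutant groups between. The share of all genes tested whose 4 groups separate in full was not counted. Separation of mutants from wild-type alone was common, at 46.6% of all genes tested at 20ºC and 67.3% at 25ºC. The log2(fold change) of *rde-3* upon mutation was −0.38 ± 0.18 at 20ºC (edgeR adjusted p = 0.241). At 25ºC it was 0.48 ± 0.19 (adjusted p = 0.097), with neither past the threshold. Scaled by total counts, the value at 25ºC was 0.65 and passed (edgeR adjusted p = 0.0338), the only 1 of 16 alternatives in which it did. That scaling moved the median of all genes in this comparison from 0.00 to 0.18.

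*mut-7*, the exonuclease-related gene, was at 31.1 and 26.8 CPM in wild-type at 20ºC, 20.6 and 22.7 at 25ºC, 22.3 and 24.4 in mutants at 20ºC, and 24.1 and 26.6 at 25ºC. Mutant libraries lay below wild-type at 20ºC and above it at 25ºC. The log2(fold change) was −0.31 ± 0.15 (adjusted p = 0.234) and 0.23 ± 0.15 (adjusted p = 0.332), in edgeR's test. *mut-8*, whose product binds MUT-7, was at 10.56 and 8.347 CPM in wild-type at 20ºC and 9.23 and 8.66 at 25ºC. In mutants it was at 7.55 and 9.97, and at 9.49 and 8.27. Mutant and wild-type libraries overlapped at both temperatures, and the averaged log2(fold change) was −0.06 ± 0.15 (95% interval −0.37 to 0.26).

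*mut-14*, the helicase gene, was at 20.7 and 22.5 CPM in wild-type at 20ºC and at 22.7 and 20.5 at 25ºC. The mutants had 16.9 and 18.4 CPM at 20ºC and 20.86 and 22.03 at 25ºC, so they were below wild-type at 20ºC and among it at 25ºC. Its log2(fold change) was −0.29 ± 0.15 at 20ºC (edgeR adjusted p = 0.277) and −0.01 ± 0.15 at 25ºC. Some reads of *mut-14* could not be placed uniquely. Its count was fractional in 5 of 8 libraries, and in each of those 5 the sum with the pseudogene ZC317.1 (V:5471833-5473146) was a whole number within 0.001. This was looked up after the fractions were seen. ZC317.1 received counts in every mutant library, 1.21 and 6.22 at 20ºC and 5.08 and 7.178 at 25ºC. In wild-type it received 0 in both libraries at 20ºC, and 0 and 3.85 at 25ºC. Its share was at most 2.4% of the sum.

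*mut-15* was at 18.5 and 12.6 CPM in wild-type at 20ºC, the widest pair of replicates among the partners, and at 13.69 and 15.02 at 25ºC. The mutants had 15.5 and 16.9 CPM, and 15.1 and 15.3 CPM. The averaged log2(fold change) was 0.07 ± 0.13 (95% interval −0.22 to 0.35). *rde-8*, the endoribonuclease gene, was at 9.41 and 8.26 CPM in wild-type at 20ºC and 7.53 and 9.19 at 25ºC. Its mutant values were 11.62 and 10.04 CPM, above wild-type, and 8.84 and 9.76 CPM, overlapping it. With an averaged log2(fold change) of 0.22 ± 0.14 (edgeR adjusted p = 0.294) it had the highest estimate of the 6 partners and did not pass the test.

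Mutant and wild-type libraries did not overlap for 5 of 7 genes at 20ºC and for 4 of 7 at 25ºC. With 2 libraries against 2 this is common: 46.6% of all genes tested did not overlap at 20ºC and 67.3% at 25ºC.

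Upon growth at 25ºC, called heat stress in the study, *rde-3* fell in wild-type and was the only member to pass the test. The log2(fold change) of *rde-3* was −0.62 ± 0.19 (SE, n = 2 per group), which is 0.651-fold, with an edgeR adjusted p of 0.0323. This 1 call of 7 stands beside 20.8% of all genes tested. It was lost in 10 of 16 alternative analyses: the adjusted p was 0.118 with DESeq2, 0.0519 with a replicate block, 0.3 with libraries scaled on the germ cell markers, and 0.0595 to 0.121 with any 1 library left out other than a mutant library at 20ºC. The estimate itself stayed between −0.52 and −0.87. The same germ cell markers had a median log2(fold change) of −0.15 in this comparison, with 1 of 12 called, *gld-1* at −0.69 (adjusted p = 0.026, called in 11 of 16 alternatives). Without the first wild-type library at 20ºC *gld-1* was at −0.29 (adjusted p = 0.275), and it also lost its call without either wild-type library at 25ºC (0.179 and 0.0775). *rde-3* also overlaps the end of *bli-4* on the opposite strand, and *bli-4* had a log2(fold change) of −0.33 (adjusted p = 0.0838). The part of either in the lower *rde-3* level was not tested. *mut-7* had a log2(fold change) of −0.42 ± 0.15 (adjusted p = 0.0658), and it passed the test with total-count scaling (0.0118) and without the second wild-type replicate at 20ºC (0.0403). Total-count scaling moved the median of all genes in this comparison to −0.25. In the main analysis the other 5 genes had values between −0.16 and 0.00. Libraries of the 2 temperatures did not overlap for 3 of 7 genes in wild-type, beside 57.4% of all genes.

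In *mut-16* mutants, 0 of 7 genes passed the test upon heat stress, beside 12.2% of all genes tested. None had an unadjusted p under 0.05 in edgeR and DESeq2 called none. The largest estimate was that of *mut-14*, 0.28 ± 0.15 on the log2 scale (adjusted p = 0.264), and *rde-3* had 0.23 ± 0.18 (adjusted p = 0.47). The per-gene intervals spanned −0.62 to 0.63. Here 4 of 7 genes had temperatures that did not overlap, beside 58.2% of all genes.

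**Figure D3:**
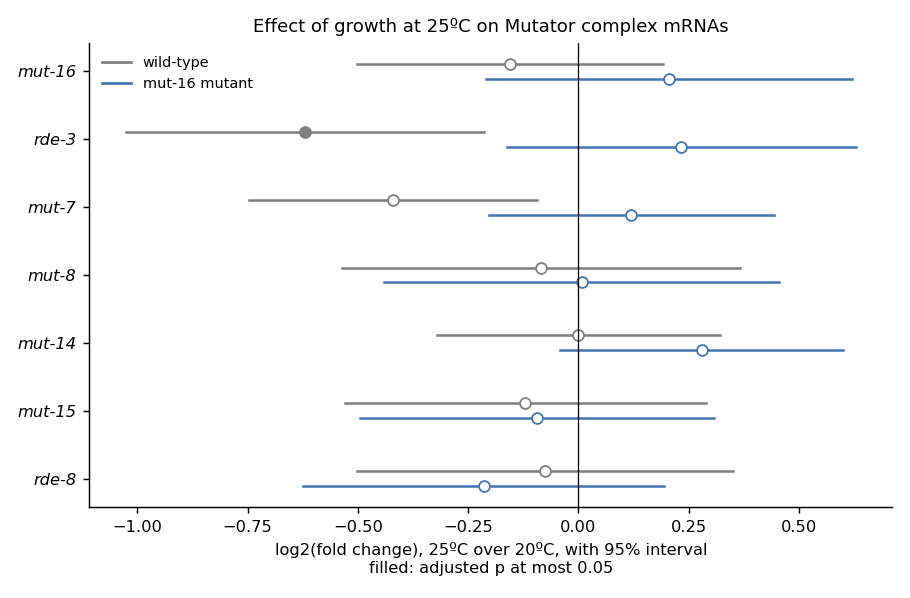
The horizontal axis gives log2(fold change) of 25ºC over 20ºC, with per-gene 95% intervals as lines, in wild-type (gray) and in *mut-16* mutants (blue). The filled point, *rde-3* in wild-type at −0.62, is the only one that passed the test.

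The difference between the heat responses of the genotypes was tested as an interaction. None of the 7 genes passed, beside 3.08% of all genes tested, and DESeq2 called none. At an unadjusted p under 0.05 there were 2, *rde-3* and *mut-7*. In the same comparison oocyte markers were higher for 10 of 10 genes (median 1.07, 2 called) and germ cell markers for 8 of 12 (median 0.26, 0 called by edgeR or DESeq2, 1 at an unadjusted p under 0.05). Their part in the members' values was not tested. For *rde-3* the heat response was 0.85 ± 0.26 higher in mutants on the log2 scale (edgeR adjusted p = 0.0976), and for *mut-7* it was 0.54 ± 0.21 higher (adjusted p = 0.183). The interaction uses the same libraries as the comparisons above, and the wild-type libraries at 20ºC enter both the mutation effect at 20ºC and the heat effect in wild-type. Within libraries, *rde-3* counts were 9.71% and 11.16% of the counts of the 6 genes other than *mut-16* in wild-type at 20ºC and 7.95% and 7.72% at 25ºC. In mutants these shares were 9.39% and 8.52% at 20ºC and 10.3% and 9.61% at 25ºC.

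**Figure D4:**
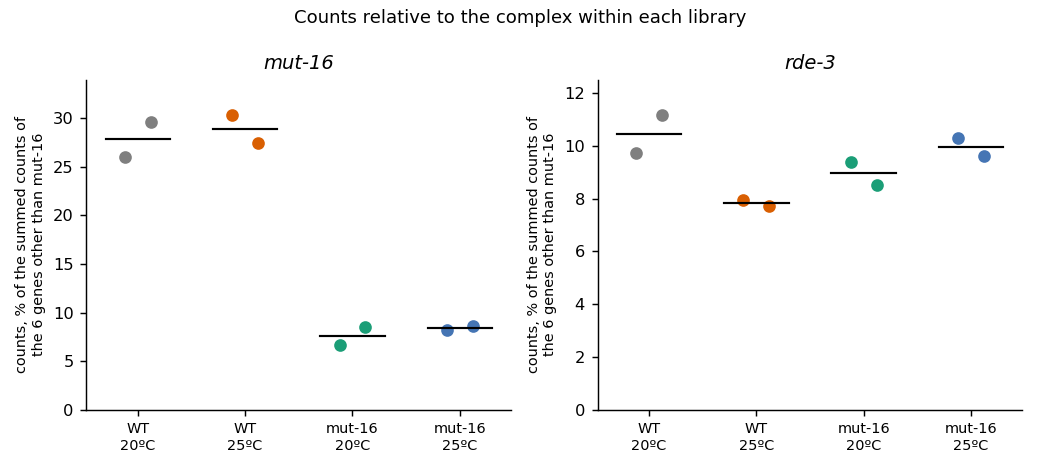
The vertical axes, from 0, give the counts of *mut-16* (left) and *rde-3* (right) as a percentage of the summed counts of the 6 genes other than *mut-16*, with points for libraries and bars for means. The *mut-16* share is 26.0% or above in wild-type and 8.62% or below in mutants, and the *rde-3* share is lowest in wild-type at 25ºC.

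Per length of exon, the 7 genes were moderately expressed and within a narrow range of each other. In wild-type at 20ºC the level ran from 4.78 ± 0.79 RPKM (CPM divided by exon length in kilobases, SD, n = 2) for *mut-8* to 12.4 ± 0.70 RPKM for *mut-14*. These levels put the genes between the 38.1 and 63.2 percentiles of all genes tested. *mut-14* had the highest mean in all 4 groups, although its lead over *rde-8* in mutants at 20ºC (10.1 against 9.73 RPKM) was within the overlap of their libraries. In wild-type at 20ºC, *mut-7* followed at 9.71 RPKM, then *rde-8* at 7.93, *mut-16* at 7.65, *mut-15* at 7.58 and *rde-3* at 6.29. The neighbours from *rde-8* to *rde-3* in that order overlapped. *mut-16* fell from the fourth place in wild-type at 20ºC to the last in both mutant groups, at 1.89 ± 0.41 RPKM at 20ºC and 2.2 ± 0.13 RPKM at 25ºC.

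None of the paralogs of 2 members passed the test with the mutation. SMUT-1 is a helicase closely related to MUT-14 that can act in its place, and NYN-1 and NYN-2 are related to RDE-8. *smut-1* was at 14.5 and 10.8 CPM in wild-type at 20ºC, 11.7 and 14.6 at 25ºC, 12.3 and 13.3 in mutants at 20ºC, and 14.2 and 13.1 at 25ºC. The groups overlapped, and the averaged log2(fold change) upon mutation was 0.03 ± 0.13 (95% interval −0.26 to 0.32). For *nyn-2* it was 0.00 ± 0.14 (95% interval −0.30 to 0.29). *nyn-1* had the widest interval, −0.75 to 0.30 around −0.23, with 41 to 100 counts per library.

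Among other genes of the small RNA pathways, 1 passed the test with the mutation. The list held 23 genes, all tested, such as the RNA-dependent RNA polymerase genes *rrf-1* and *ego-1*, the Argonaute genes *wago-1*, *wago-4* and *hrde-1*, and *dcr-1*, which encodes Dicer. At 20ºC 0 of 23 were called higher and 1 was called lower by edgeR, beside 8.43% of all genes called, and DESeq2 called 0. At 25ºC 0 of 23 passed edgeR's test, beside 20.2%, with 2 at an unadjusted p under 0.05 and 0 by DESeq2. The median log2(fold change) of the list was 0.01 at 20ºC and 0.08 at 25ºC, beside −0.05 and 0.00 over all genes tested.

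The gene called lower was *pid-2*, which acts in piRNA-induced silencing. It was at 7.96 and 6.84 CPM in wild-type and 4.27 and 4.37 CPM in mutants at 20ºC, and at 14.8 and 15.1 CPM in wild-type and 13.8 and 13.6 CPM in mutants at 25ºC. The mutants were lower at both temperatures, with a log2(fold change) of −0.78 ± 0.20 at 20ºC (edgeR adjusted p = 0.0262) and −0.12 ± 0.17 at 25ºC (adjusted p = 0.673). The call at 20ºC held in 8 of 17 alternatives and was lost with DESeq2 (adjusted p = 0.097), with germ cell marker scaling (0.289), and without the first wild-type replicate at 20ºC or any 1 of the 4 mutant libraries (0.0595 to 0.166). Averaged over temperatures it was −0.45 ± 0.13 (adjusted p = 0.0234), a call that held in 6 of 15 alternatives. At 25ºC, where culture time was also shorter, *pid-2* was higher than at 20ºC in both genotypes. The log2(fold change) was 1.01 ± 0.18 in wild-type (edgeR adjusted p = 0.00115) and 1.66 ± 0.19 in mutants (adjusted p = 4.79e-05). Both calls held in all 16 alternatives. *pid-2* was the only 1 of the 23 genes called with heat stress in either genotype. Among all genes tested 20.8% were called with heat stress in wild-type and 12.2% in mutants.

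**Figure D5:**
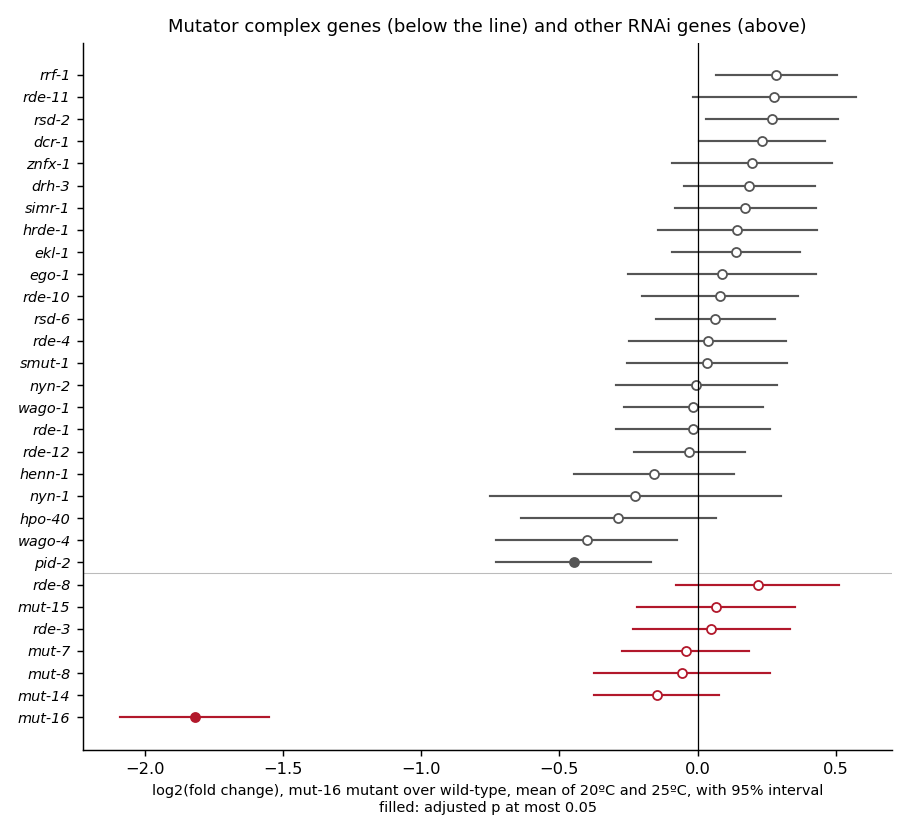
The horizontal axis gives log2(fold change) of *mut-16* mutant over wild-type averaged over both temperatures, with per-gene 95% intervals, for the 7 Mutator complex genes (red, below the line) and 23 other small RNA pathway genes (gray). Filled points passed the test, and these are *mut-16* at −1.82 and *pid-2* at −0.45.

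The genes whose profile over the 8 libraries was most like that of *mut-16* were R105.1, *cyp-34A9*, *ent-3*, F47D12.7 and *snf-5*. Likeness was measured as the root mean square difference of centred log2 CPM, which was 0.20 for R105.1 and 0.33 for *snf-5*, beside a median of 0.96 over 9856 genes expressed at a mean log2 CPM from 2 upwards. R105.1, for example, was at 9.12 to 11.9 CPM in wild-type and 2.58 to 4.37 CPM in mutants. The mean profile of the 6 partners was most like those of *hcp-4*, *sams-3*, *copg-1*, *erd-2.1* and *cerk-1*, with differences of 0.036 to 0.055 beside a median of 0.25. Each partner lay farther from that mean than these genes did, by 0.089 (*mut-7*) to 0.178 (*rde-8*). *hcp-4*, a centromere protein gene, was at 42.5 and 36.3 CPM in wild-type at 20ºC, 32.3 and 35.2 at 25ºC, and 36.5 to 37.6 in the mutants. The genes were picked for this likeness, so it carries no test.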

How the data were processed

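Poly(A) RNA of whole L4 animals was sequenced by the authors as single-end reads from a directional kit. Per the labels, 2 biological replicates were made for each of 4 groups. The authors trimmed reads with Cutadapt, quantified transcripts with Salmon against WS258 and deposited expected counts (estimated counts) summed per gene, 1 table per library. Whether strand was used in counting is not given in the sources used here. *rde-3* overlaps *bli-4* on the opposite strand and *mut-8* overlaps *hint-1* on its own strand at their ends, so reads there could be shared.

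Of 46453 names, 4 repeats with no counts were dropped, and 46260 genes were matched to WBcel235 (Ensembl release 115). Expected counts were rounded, filtered with filterByExpr (minimum count 10, minimum total 15), scaled by TMM and tested with edgeR 4.0.16 (R 4.3.3) in quasi-likelihood fits over 8 libraries and 4 groups, without a replicate block. P-values were adjusted by Benjamini-Hochberg over 13972 genes, and calls needed an adjusted p up to 0.05. Intervals are per gene at 95%, unadjusted. RPKM used the union of annotated exons. The script was tested on simulated data. Alternatives were DESeq2 1.42.0, other scalings and filters, a replicate block, the libraries of a comparison alone and each library left out.

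The members and gene lists were chosen with earlier results of these data known. Named were all 7 members, pathway genes called with the mutation, 3 paralogs, and the 5 genes nearest in profile to *mut-16* and to the partners' mean. Neighbouring genes were counted, to be named if called with the mutation (none was). Genes that overlap a member, and 3 neighbours called upon heat stress, are named in addition, the latter after their values were seen, as are markers cited as examples. Nothing says how far the replicates were separate cultures, so p-values measure the spread between these samples. Replicates differed by more than sampling noise (chi-square per degree of freedom 3.68 to 18.9).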

Additional observations from a re-analysis of the deposited data

Results flagged for a closer look

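The libraries of *rde-3* moved in opposite directions upon heat stress in the 2 genotypes. Both wild-type libraries at 25ºC lay below both at 20ºC, and both mutant libraries at 25ºC lay above both at 20ºC. With 2 libraries against 2, separation within 1 genotype is common: 57.4% of all genes tested did not overlap in wild-type and 58.2% in mutants. The share of genes separated in opposite directions in the 2 genotypes was not counted. Of the 2 *rde-3* responses, that in wild-type passed edgeR's test (log2(fold change) −0.62, adjusted p = 0.0323), and that in mutants did not (0.23, adjusted p = 0.47). The heat response in mutants minus that in wild-type was 0.85 ± 0.26 on the log2 scale (95% interval 0.29 to 1.42). The interaction did not pass the test (edgeR adjusted p = 0.0976), and over 15 alternatives the adjusted p ranged from 0.0534 to 0.559. In the same interaction, oocyte markers were higher for 10 of 10 genes (median 1.07, 2 called) and germ cell markers for 8 of 12 (median 0.26, *glp-1* at 0.97 with an adjusted p of 0.0945), and their part in the *rde-3* value was not tested.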

How the results depend on the processing

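*mut-16* was called lower in mutants in every alternative run. Over the 7 genes, 588 of 665 recomputed values kept their direction and side of the threshold, 64 changed sign with no call in either (absolute value at most 0.32), 10 were no longer called, all *rde-3* upon heat stress in wild-type, 3 were newly called, and 0 were called in the opposite direction. For heat stress in wild-type, where 1 member was called, 0 were called with DESeq2, with germ cell marker scaling, with the replicate block, with only the libraries of the comparison and with the study's cutoff. There were 2 with total-count scaling and 0 to 1 with a library left out. Without the second wild-type replicate at 20ºC the 1 call was *mut-7* in place of *rde-3*. For the mutation at 25ºC, 2 were called with total-count scaling in place of 1. The calls added by that scaling were *mut-7* upon heat stress in wild-type and *rde-3* with the mutation at 25ºC. Over all genes it called 3675 and 3208 in these comparisons (main 2900 and 2817), and it moved the median of all genes, as given below. The causes were not tested.

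Replicate numbers did not pair the libraries (correlations of deviations −0.165 to 0.073), and the replicate block changed no other member's call. A crossed pairing at 20ºC, added after seeing the data and fitted to the 4 libraries of that comparison, called 1 member and 1425 genes, beside 711 in the same libraries without a block. Over all genes, germ cell marker scaling gave 400, 1584 and 1908 calls for the mutation at 20ºC, at 25ºC and averaged (main 1178, 2817 and 3103), and 1434, 784 and 103 for heat in wild-type, heat in mutants and the interaction (main 2900, 1702 and 431). The study's cutoff left 638, 1650, 1373, 1325 and 890. Only the libraries of the comparison gave 711 at 20ºC and 4296 at 25ºC. No filter gave 1814 at 20ºC and 1211 for the interaction, and total-count scaling 656 for the latter. Leaving out a library gave as few as 391 calls at 20ºC, 1176 at 25ºC, 1997 averaged, 1445 and 715 for heat, and 124 to 1093 for the interaction. Total-count scaling moved the median of all genes to −0.25 for heat in wild-type and to 0.18 for the mutation at 25ºC, and the share of calls that were higher from 53.7% to 24.2% and from 38.1% to 59.8%. Members had 55 to 407 counts in each of 2 libraries a group. The intervals give the precision that follows from these counts and from the spread between replicates.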

Other observations

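The nearest protein-coding gene on each side of each member gave 14 neighbours, of which 13 were tested. None was called with the mutation by edgeR or DESeq2 at either temperature, beside 8.43% of all genes tested at 20ºC and 20.2% at 25ºC, with 1 at an unadjusted p under 0.05 at 20ºC and 2 at 25ºC. Upon heat stress in wild-type 3 of 13 were called, a share near the 20.8% of all genes tested. They are named here after their values were seen. B0379.1, beside *mut-16*, rose by 0.50 on the log2 scale (edgeR adjusted p = 0.0218, called in 10 of 16 alternatives, and 0.0516 to 0.135 without the second wild-type library at 20ºC, either wild-type library at 25ºC or the second mutant library at 25ºC). *pfd-6*, a prefoldin subunit gene beside *mut-8*, had −0.75 (adjusted p = 0.0221, called in 11 of 16 alternatives). Without the second wild-type library at 20ºC *pfd-6* was at −0.30 (adjusted p = 0.26), and it lost its call without either wild-type library at 25ºC (0.0984 and 0.129). ZC477.3, beside *rde-8*, had −1.001 (adjusted p = 0.000531), a call that held in all 16 alternatives. None of the neighbours was called by edgeR upon heat stress in mutants, beside 12.2% of all genes, with 0 at an unadjusted p under 0.05 and 0 by DESeq2.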
